A study of Sus scrofa with 12 samples.

Results

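Porcine aortic valve interstitial cells (paVICs) that received 60 μM dantrolene alone for 24 h were compared with cells that received the vehicle, across all genes measured. The comparison used 6 of the 12 RNA sequencing libraries of the study, 3 with dantrolene and 3 with vehicle, chosen by their labelled treatment. Both groups were wild-type primary cells in medium with 1% bovine growth serum, and both held 0.6% DMSO and 0.1% EtOH, the solvents of the study's compounds. The other 6 libraries held 10 μM lysophosphatidylcholine (LPC), alone or with dantrolene, and were used here to estimate the spread and to set the same drug beside its effect on LPC-treated cells. Each replicate number is taken here to mark a separate primary isolation. This is an assumption, as the labels do not name the isolation, and same-numbered libraries are treated as pairs on that basis. An isolation pooled the valves of several pig hearts and was cultured on its own day, so it is not a single animal.

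Aortic valve leaflets are thin sheets of matrix populated by fibroblast-like interstitial cells. These cells build and turn over collagen and proteoglycans, and in culture many of them take on the traits of myofibroblasts, with actin stress fibres and contractile proteins. Dantrolene is a muscle relaxant that blocks ryanodine receptors, the channels that let calcium out of the sarcoplasmic or endoplasmic reticulum. The comparison asks which transcripts differ when resting paVICs receive the drug without the lipid LPC.

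Total counts on genes ranged from 16826942 to 24105935 in these 6 libraries, and 13216 of the 31908 listed genes passed the filter on low counts and were tested. Levels are counts per 1000000 (CPM) scaled with edgeR's TMM factors, in the order of isolations 1, 2 and 3, and means are given ± SD (n = 3). In these libraries 3 counts correspond to between 0.114 and 0.175 CPM. Fold changes are dantrolene minus vehicle on the log2 scale, and adjusted p-values are those of edgeR's quasi-likelihood test after Benjamini-Hochberg adjustment over all 13216 genes, with genes called under 0.05. The summed level of 12 fibroblast markers lay between 64133 and 73384 CPM with vehicle and between 45636 and 58432 CPM with dantrolene. The leukocyte markers PTPRC and CD3E, the cardiac marker TNNT2, the erythroid markers HBB, ALAS2 and AHSP, and the epithelial markers EPCAM, CDH1 and KRT18 had 0 counts in all 6 libraries. Other members of these lists were detected: the monocyte marker CD14 was between 14.7 and 22.1 CPM with vehicle and between 14.8 and 16.5 CPM with dantrolene, CD68 lay between 1.15 and 1.96 CPM and CD79A between 0.467 and 1.38 CPM over both groups, and in dantrolene replicate 2 TYROBP was at 0.914 CPM and the muscle gene ACTN2 at 0.457 CPM.

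Dantrolene raised 997 genes (7.54% of those tested) and lowered 166 (1.26%), together 1163 genes (8.8%). Every dantrolene library was above every vehicle library in 16.1% of all genes tested, and below in 11%. The raised genes had a median log2 fold change of 1.58 (interquartile range 1.29 to 1.93). The lowered genes had a median of −1.44 (interquartile range −2.02 to −1.19). In 979 of the raised and 149 of the lowered genes, all 3 same-numbered pairs moved the same way, against 6110 of all 13216 genes tested (46.2%), though the called genes were selected on these same libraries. The raised genes were low in resting cells, with a median of 7.23 CPM with vehicle and 22.9 CPM with dantrolene, while the lowered genes went from a median of 20.2 to 8.4 CPM. Among the lowered genes, 27 had 0 counts in all 3 dantrolene libraries and at most 1.94 CPM with vehicle, so their fitted fold changes are not estimates of size. With these genes set at the bound that 3 counts allow, the median of the lowered genes was −1.42 and 37 of them were lowered at least 4-fold. With the 4 raised genes at 0 in all vehicle libraries set at their bound, 206 genes were raised at least 4-fold.

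**Figure D1:**
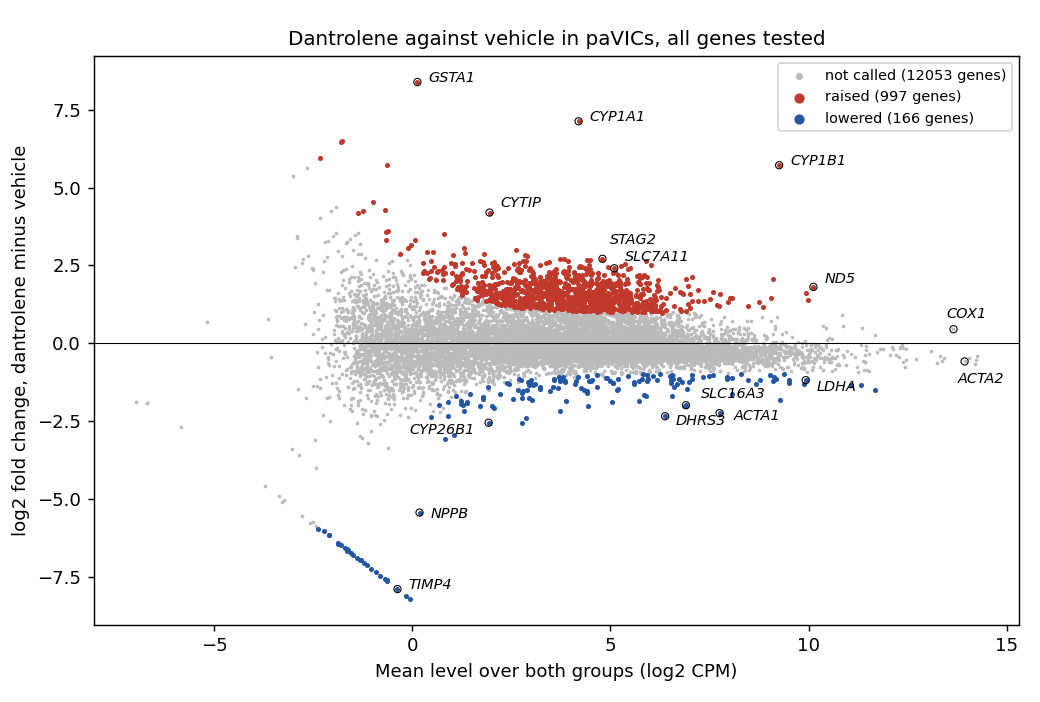
Log2 fold change of dantrolene minus vehicle against the mean level over both groups (log2 CPM) for the genes tested, leaving out those at 0 in both groups. Red points are the 997 raised genes and blue points the 166 lowered genes at an adjusted p under 0.05, and the diagonal line of blue points at the lower left holds genes with 0 counts in every dantrolene library.

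The median log2 fold change over all genes tested was −0.109, and it was 0.129 when libraries were scaled by total counts alone. With that scaling 94.3% of called genes were raised, against 85.7% with TMM factors, and the number of lowered genes was 61 in place of 166. The number of calls rested most on dantrolene replicate 2: without it 377 genes were raised and 52 lowered, and all 377 and all 52 were among the genes called with it. With the isolation as a block, 740 genes were raised and 77 lowered.

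Dantrolene raised targets of the aryl hydrocarbon receptor (AHR), a ligand-activated transcription factor that turns on enzymes that oxidise foreign and endogenous ring compounds. CYP1A1, a monooxygenase and the best-known AHR target, lies on chromosome 7 from 58802887 to 58809155 in RefSeq's annotation of Sscrofa11.1. It was at 0.238, 0.467 and 0.0581 CPM with vehicle and at 13.5, 42.7 and 53 CPM with dantrolene (log2 fold change 7.13, SE 0.58, adjusted p = 2.14e-16). All vehicle libraries were near the floor and no dantrolene library was. CYP1B1, a related monooxygenase, was at 22.6, 40.8 and 4.88 CPM with vehicle and at 769, 885 and 1944 CPM with dantrolene (log2 fold change 5.72, SE 0.51, adjusted p = 2.26e-14). Isolation 3 had the lowest vehicle level and the highest dantrolene level of both genes.

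Other AHR targets rose less. AHRR, the repressor that AHR itself induces, was at 19.5, 45.8 and 18.5 CPM with vehicle and 59.8, 83.4 and 102 CPM with dantrolene (log2 fold change 1.55, SE 0.35, adjusted p = 0.000901), and TIPARP, an ADP-ribosyltransferase that also restrains AHR, was at 24.1, 34.7 and 15.6 CPM with vehicle and 67.6, 107 and 111 CPM with dantrolene (log2 fold change 1.94, SE 0.35, adjusted p = 4e-05). Neither gene's groups overlapped. Of the 9 target genes tested 6 were raised and none was lowered (median log2 fold change 1.55), against 7.54% and 1.26% of all genes tested. Of the receptor and its partners, only AHR was raised of 7 tested, from 22.7 ± 2.56 to 58.6 ± 25.6 CPM (log2 fold change 1.37, SE 0.34, adjusted p = 0.00343), and its adjusted p was 0.15 without dantrolene replicate 2. Its partner ARNT was at 101 ± 32.8 and 87.2 ± 3.09 CPM (adjusted p = 0.813). SERPINB2, a protease inhibitor on the target list, was at 1.24, 1.52 and 0.407 CPM with vehicle and 0.493, 2.86 and 5.89 CPM with dantrolene, and the groups overlapped (adjusted p = 0.134).

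Of 23 tested genes that the antioxidant factor NRF2 is known to control, 4 were raised and none was lowered (median log2 fold change 0.20). Over all genes tested 7.54% were raised and 1.26% lowered. NQO1 and NFE2L2, among these 4, were also counted with the raised AHR targets. SLC7A11, the cystine importer that feeds glutathione synthesis, was at 13.5, 11.7 and 7.21 CPM with vehicle and 25.7, 81.1 and 65.9 CPM with dantrolene (log2 fold change 2.41, SE 0.38, adjusted p = 6.34e-06). NQO1, a quinone reductase that AHR also controls, rose from 74.3 ± 14 to 190.4 ± 50.9 CPM (log2 fold change 1.36, SE 0.33, adjusted p = 0.0026), with an adjusted p of 0.0601 without vehicle replicate 2. NFE2L2, which encodes NRF2, rose from 52.5 ± 10.4 to 163 ± 56.8 CPM (log2 fold change 1.63, adjusted p = 0.000503). GSTA1, a glutathione transferase, had 0 counts in the 3 vehicle libraries and 18, 22 and 87 counts with dantrolene, which is at least 13.3-fold higher, and isolation 3 held most of these counts. GCLM and GCLC, the subunits of the enzyme that starts glutathione synthesis, were at 27.8 against 53.4 CPM and 28.3 against 51.5 CPM as group means. In both, every dantrolene library was above every vehicle library, as in 16.1% of all genes tested, and neither was called (adjusted p = 0.077 and 0.101).

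Lists of chromosome, vesicle tether, centrosome, chromatin and ubiquitin genes held many raised members and no lowered ones. Cohesin and related SMC (structural maintenance of chromosomes) genes form the rings that hold and fold DNA. Of 20 tested 13 were raised and none lowered (median log2 fold change 1.56), against 7.54% and 1.26% of all genes tested. STAG2, a cohesin subunit on chromosome X from 101476117 to 101617405, was at 7.54, 7.07 and 7.5 CPM with vehicle and at 25.1, 85.3 and 34.5 CPM with dantrolene (log2 fold change 2.71, SE 0.39, adjusted p = 1.41e-06). Vehicle libraries were almost equal, while dantrolene replicate 2 stood above the other treated libraries. SMC2, the condensin subunit, was at 2.96, 5.2 and 3.31 CPM with vehicle and 11.7, 45.8 and 17 CPM with dantrolene (log2 fold change 2.70, adjusted p = 2.36e-06), and SMC3 at 11.3, 9.11 and 8.08 CPM with vehicle and 24.6, 90.6 and 41 CPM with dantrolene (log2 fold change 2.45, adjusted p = 6.34e-06). NIPBL, which loads cohesin onto DNA, had 7.49, 6.48 and 5.52 CPM with vehicle and 17.8, 61.9 and 31.8 CPM with dantrolene (log2 fold change 2.52, adjusted p = 4.39e-06). SMC6 also rose, from 9.01 ± 2.25 to 42.7 ± 24.6 CPM (log2 fold change 2.24). In each of these genes the groups did not overlap and dantrolene replicate 2 was the highest and replicate 1 the lowest of the treated libraries.

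Golgins and endosome tethers, long coiled-coil proteins that catch transport vesicles, followed the same pattern. Of 20 tested 12 were raised and none lowered (median 1.76), against 7.54% and 1.26% of all genes tested. KTN1, the kinesin receptor of the endoplasmic reticulum on chromosome 1 from 184881555 to 184990936, was at 21.6, 16.2 and 11.2 CPM with vehicle and 48.5, 177 and 81.7 CPM with dantrolene (log2 fold change 2.65, SE 0.38, adjusted p = 1.41e-06). EEA1, a tether of early endosomes, was at 14.8, 12.2 and 9.12 CPM with vehicle and 31.2, 119.8 and 58.6 CPM with dantrolene (log2 fold change 2.53, adjusted p = 2.5e-06), and CCDC186 at 4.39, 2.63 and 3.6 CPM with vehicle and 11.7, 43.2 and 14.5 CPM with dantrolene (log2 fold change 2.71, adjusted p = 2.33e-06). The group means of GOLGB1, the giant golgin, were 14.1 against 73.1 CPM (log2 fold change 2.38). VPS13C, a lipid transfer protein at contacts between organelles, rose from 5.79 ± 3.62 to 37 ± 23.3 CPM (log2 fold change 2.67, adjusted p = 3.01e-06). Vehicle and dantrolene values of these 5 genes did not overlap.

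Centrosome and satellite genes had 10 of 18 tested raised, ubiquitin ligases 12 of 31, chromatin remodellers and methyltransferases 13 of 41, and kinesins, motors that walk along microtubules, 6 of 22, against 7.54% of all genes tested. PCM1, the scaffold of centriolar satellites, was at 18, 8.53 and 8.31 CPM with vehicle and 30.7, 107 and 57.3 CPM with dantrolene (log2 fold change 2.48, adjusted p = 4.54e-06), and CCDC88A (girdin), an actin-binding protein on the same list, rose from 6.06 ± 0.825 to 38.8 ± 27.7 CPM (log2 fold change 2.68, adjusted p = 2.36e-06). The kinase ROCK1, which drives myosin contraction, rose from 18 ± 4.11 to 68.4 ± 41.7 CPM (log2 fold change 1.93). Among ligases, CUL5, a cullin scaffold, rose from 4.97 ± 2.1 to 23.7 ± 13.3 CPM (log2 fold change 2.25), and BIRC6 from 15.9 ± 5.15 to 59.6 ± 27.7 CPM (1.91). ATRX (5.71 against 31.4 CPM), SMARCA5 (22.8 against 85 CPM) and CHD1 (7.16 against 28.5 CPM), which use ATP to move nucleosomes, were among the raised remodellers. KIF5B, the conventional kinesin, rose from 69.3 ± 17.6 to 227 ± 115 CPM (log2 fold change 1.71, adjusted p = 0.000334), KIF3A, a ciliary motor, from 3.2 ± 1.26 to 12.2 ± 4.89 CPM (log2 fold change 1.93, adjusted p = 0.000256), and KIF12 from 9.3 ± 4.22 to 22.9 ± 5.31 CPM (log2 fold change 1.31, adjusted p = 0.00917). Of the kinesin list 1 member was lowered, KIF14, which acts late in cell division (2.56 against 0.629 CPM, adjusted p = 0.0352, and 0.102 with the block). KIF20B, also of cell division, was called but its groups overlapped (0.811, 0.35 and 0.523 CPM with vehicle, 0.547, 7.85 and 1.69 CPM with dantrolene), and its adjusted p was 0.254 under DESeq2's Wald test.

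The size of these groups depended on 1 library. With each of the 12 libraries left out in turn, between 9 and 13 cohesin and SMC genes were raised, between 10 and 12 golgins and tethers, between 7 and 12 centrosome genes, between 8 and 16 ubiquitin ligases, between 5 and 14 chromatin genes and between 1 and 6 kinesins, and the lowest count of each came without dantrolene replicate 2. STAG2, SMC2, SMC3, NIPBL, KTN1, EEA1, CCDC186, PCM1 and CCDC88A were called in every alternative run. The 997 raised genes held 1.69%, 1.31% and 1% of the counts of the vehicle libraries and 2.94%, 6.53% and 4.41% of those of the dantrolene libraries. The 166 lowered genes held 2.52%, 2.69% and 3.15% with vehicle and 1.49%, 1.22% and 1.25% with dantrolene, so the lowered genes were more even between treated libraries than the raised ones.

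Genes named for their rank by adjusted p or fold change added members with other functions. CYTIP, a regulator of cytohesin signalling best known in leukocytes, was at 0, 0.701 and 0.523 CPM with vehicle and 3.18, 11.8 and 6.99 CPM with dantrolene (log2 fold change 4.20, SE 0.59, adjusted p = 1.41e-06). KITLG, the ligand of the KIT receptor, was at 20.5, 21.7 and 15.1 CPM with vehicle and 67.2, 157 and 106 CPM with dantrolene (log2 fold change 2.53, adjusted p = 3.01e-06), and ARHGAP5, a GTPase-activating protein, at 17.1, 14.4 and 11.1 CPM with vehicle and 38.9, 127 and 63.6 CPM with dantrolene (log2 fold change 2.43, adjusted p = 3.01e-06). The groups of all 3 genes stood apart. NSRP1, a splicing regulator, rose from 1.36 ± 0.534 to 10.9 ± 8.24 CPM, LRRCC1, a centriole protein, from 1.8 ± 0.487 to 12.7 ± 8.76 CPM, and SAMD9, an innate immune factor, from 3.08 ± 0.602 to 18.7 ± 13.1 CPM (log2 fold changes 3.01, 2.82 and 2.61). NUDT12 (0.85 against 6.22 CPM), DMXL2 (1.86 against 13.1 CPM), ESF1 (2 against 12.5 CPM) and CEP126 (0.92 against 5.67 CPM) also rose, with log2 fold changes between 2.64 and 2.87.

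The 13 protein-coding genes of the mitochondrial genome were all above 0, against 41.4% of all genes tested. Of them 9 were raised (median log2 fold change 1.33), against 7.54% of all genes tested. ND2 was at 277, 231 and 136 CPM with vehicle and 537, 1368 and 769 CPM with dantrolene (log2 fold change 2.05, SE 0.36, adjusted p = 3.19e-05), and ND5, another subunit of respiratory complex I, at 665, 471 and 345 CPM with vehicle and 908, 3108 and 1178 CPM with dantrolene (log2 fold change 1.81, adjusted p = 0.000312). ATP6, a subunit of the ATP synthase, rose from 479 ± 75.6 to 1471 ± 789 CPM and CYTB, of complex III, from 283 ± 48.7 to 778 ± 400.1 CPM (log2 fold changes 1.62 and 1.46). COX1, the most abundant of these transcripts, was at 15165, 8076 and 9399.6 CPM with vehicle and 12991, 17833 and 13803 CPM with dantrolene, and the groups overlapped (adjusted p = 0.582). COX2 (log2 fold change 0.91, adjusted p = 0.0826), COX3 (log2 fold change 0.48, adjusted p = 0.555) and ND3 (log2 fold change 0.47, adjusted p = 0.553) were not called either. Without dantrolene replicate 2 the median of the 13 genes was 0.84 and only 1 of them was raised, and the adjusted p was 0.123 for ND5, 0.0885 for ATP6 and 0.165 for CYTB. Summed over the 13 genes, the level was 23108, 13848 and 14111 CPM with vehicle and 21470, 38308 and 24801 CPM with dantrolene. None of the 44 nuclear genes of oxidative phosphorylation tested was called (median −0.18).

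Raised genes were long. Of the 997 raised genes 896 could be matched to a RefSeq gene of Sscrofa11.1, and their median span from start to end was 67.2 kb, against 30.5 kb for all genes tested with a match (10811) and 15.9 kb for 135 of the 166 lowered genes. Among genes that span under 10 kb, 1.63% were raised and 2.08% lowered. Between 10 and 30 kb the shares were 4.28% and 1.49%, between 30 and 60 kb 10.9% and 0.755%, between 60 and 120 kb 15.7% and 0.878%, and from 120 kb upward 14% and 0.679%. The raised genes called without dantrolene replicate 2 had a median span of 71.1 kb and the lowered ones 18.1 kb, a check chosen with the data known.

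Library by library, the median log2 ratio to the vehicle mean of genes under 10 kb was −0.154, −0.376 and −0.217 in the dantrolene libraries and −0.131, 0.0142 and 0.0977 in the vehicle libraries. For genes of 120 kb and over it was 0.104, 0.143 and 0.00709 with dantrolene and 0.175, −0.0259 and −0.188 with vehicle. The vehicle libraries differed from each other along gene span too, with vehicle replicate 1 the lowest of its group for short genes and the highest for long ones. The groups did not overlap for genes under 10 kb, where vehicle replicate 1 was just above dantrolene replicate 1, and they overlapped for genes of 120 kb and over. The part of gene span in the raised calls was not tested.

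**Figure D2:**
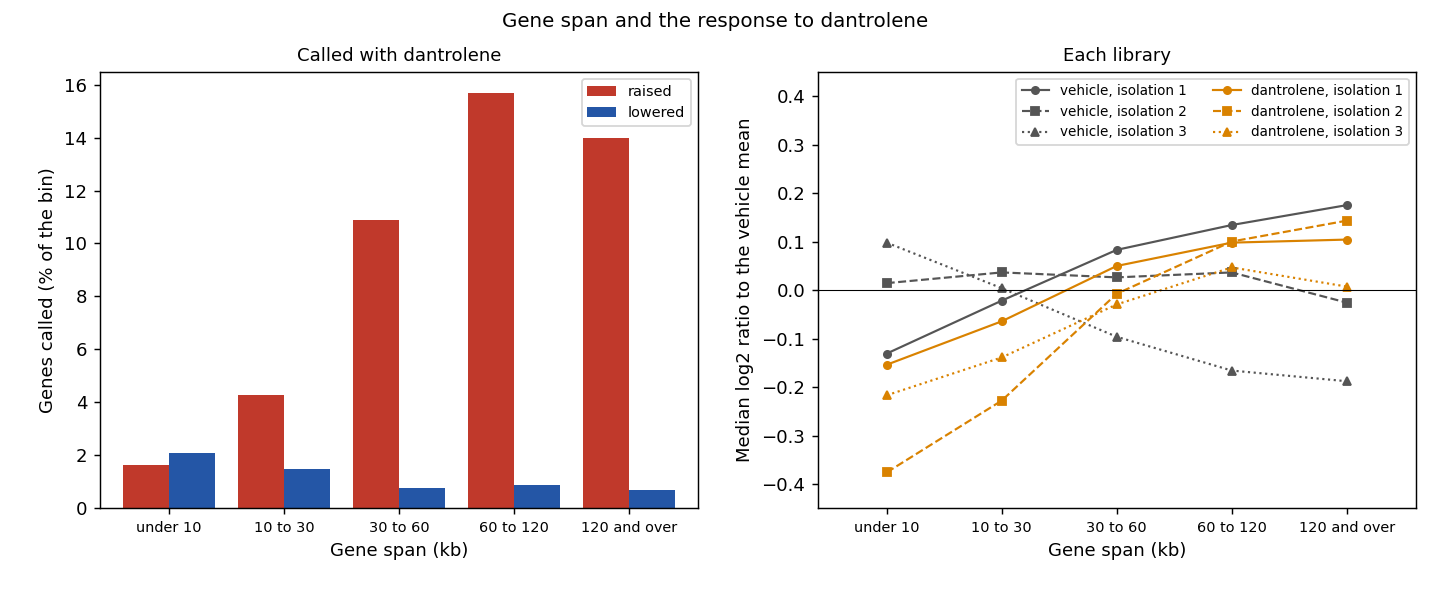
Left, share of genes raised (red) and lowered (blue) in 5 bins of gene span in kb. Right, median log2 ratio of each vehicle and dantrolene library to the mean of the vehicle libraries in the same bins (0.5 CPM added), where the dantrolene libraries run from below 0 for short genes to above 0 for long genes and vehicle replicate 1 runs the same way.

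Of 27 inflammation genes tested 3 were raised and 1 lowered, against 7.54% and 1.26% of all genes tested. IL6ST (gp130), the shared receptor of the interleukin-6 family, was at 74, 38.9 and 34.8 CPM with vehicle and 131, 307 and 209.6 CPM with dantrolene (log2 fold change 2.13, SE 0.37, adjusted p = 2e-05), without overlap. CXCL8, the neutrophil chemokine interleukin-8, was at 1.05, 0.584 and 0.116 CPM with vehicle and 1.53, 3.5 and 8.4 CPM with dantrolene (log2 fold change 2.89, SE 0.60, adjusted p = 0.000325), with an adjusted p of 0.0951 under DESeq2's Wald test. PTGS2, the inducible cyclooxygenase, was at 49.7, 89.6 and 26.1 CPM with vehicle and 83.1, 109.5 and 152 CPM with dantrolene with overlapping groups (log2 fold change 1.06, adjusted p = 0.0431), and its call was lost in 10 of 19 alternatives, the block among them. IL6R, the interleukin-6 receptor, was at 1.91, 8.29 and 4.94 CPM with vehicle and 9.85, 11.7 and 11.1 CPM with dantrolene and missed the threshold (adjusted p = 0.0572). Its groups did not overlap, as in 16.1% of all genes tested in this direction. SLPI, an inhibitor of leukocyte proteases, was the lowered member, at 14.4, 4.03 and 16.2 CPM with vehicle and 4.33, 0.305 and 1.36 CPM with dantrolene (log2 fold change −2.55, adjusted p = 0.000312, and 0.133 under DESeq2). Its groups overlapped, since vehicle replicate 2 was below dantrolene replicate 1.

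Of 32 genes of TGF-beta and BMP signalling tested 4 were raised and 5 lowered, against 7.54% and 1.26% of all genes tested. The raised members act in receiving cells: the type I receptors BMPR1A (from 15.3 ± 3.52 to 43.4 ± 13.2 CPM, log2 fold change 1.50) and TGFBR1 (from 25.7 ± 7.62 to 63.1 ± 21.9 CPM, 1.29), the signal carrier SMAD5 (from 9.46 ± 3.21 to 26.9 ± 8.6 CPM, 1.50) and the SMAD repressor SKIL (from 28.8 ± 6.62 to 78.7 ± 30.9 CPM, 1.45). All 4 lost the call without dantrolene replicate 2 (adjusted p between 0.0641 and 0.168). Among the lowered members were the ligands GDF6, TGFB3 and BMP4. GDF6 was at 20.4, 33.4 and 41.2 CPM with vehicle and 9.25, 14.6 and 7.64 CPM with dantrolene (log2 fold change −1.59, SE 0.37, adjusted p = 0.00131), TGFB3 fell from 366 ± 80.6 to 168 ± 56.5 CPM (log2 fold change −1.12, adjusted p = 0.025), and BMP4 from 90.6 ± 25.9 to 44 ± 10.6 CPM (log2 fold change −1.04, adjusted p = 0.0408). ID3, a direct BMP target, was at 171, 381 and 467 CPM with vehicle and 123, 192 and 148 CPM with dantrolene (log2 fold change −1.14, adjusted p = 0.0204), with isolation 1 low in both groups. With the isolation as a block 2 of the 5 lowered members were called, and ID3, TGFB3 and BMP4 were not.

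Of 20 retinoid genes tested 2 were lowered and none was raised, against 1.26% and 7.54% of all genes tested. DHRS3, which reduces retinaldehyde to retinol and is itself induced by retinoic acid, lies on chromosome 6 from 72556234 to 72599233. It was at 159, 94.5 and 164 CPM with vehicle and 37.3, 21.4 and 23.5 CPM with dantrolene (log2 fold change −2.35, SE 0.36, adjusted p = 3.1e-06). CYP26B1, which degrades retinoic acid and is another of its targets, was at 5.53, 6.6 and 7.38 CPM with vehicle and 0.931, 0.914 and 1.47 CPM with dantrolene (log2 fold change −2.56, SE 0.47, adjusted p = 5.97e-05). The groups of neither gene overlapped. The list's median was −0.11, close to that of all genes tested.

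All 17 glycolysis genes tested were below 0 (median −0.87), 15 of them without overlap between the groups, and 8 were lowered. Over all genes tested 58.6% were below 0, in 11% every dantrolene library was below every vehicle library, and 1.26% were lowered. SLC16A3, the lactate exporter MCT4 on chromosome 12 from 796882 to 807480, was at 161, 256 and 158 CPM with vehicle and 44, 36.3 and 64.3 CPM with dantrolene (log2 fold change −1.99, SE 0.34, adjusted p = 2.04e-05). HK2, the inducible hexokinase that traps glucose in the cell, was at 74.6, 133 and 64.2 CPM with vehicle and 17.4, 31 and 36.2 CPM with dantrolene (log2 fold change −1.68, SE 0.34, adjusted p = 0.00021). PFKFB3, which makes the activator of phosphofructokinase, was at 88.1, 96.1 and 77.2 CPM with vehicle and 22.1, 26.2 and 33.3 CPM with dantrolene (log2 fold change −1.68, SE 0.34, adjusted p = 0.000236). Vehicle and dantrolene libraries stood apart in all 3. LDHA, the lactate dehydrogenase of muscle type, fell from 1430.3, 1512 and 1113 to 569, 457 and 757 CPM (log2 fold change −1.19, adjusted p = 0.0137), and TPI1, PFKL, HK1 and PGAM1 fell with log2 fold changes between −1.16 and −1.01. PKM (3681 against 2045 CPM), PGK1 (463 against 254 CPM), GPI (431 against 237 CPM) and ENO1 (3293 against 2177 CPM) did not overlap between groups and missed the threshold (adjusted p between 0.0979 and 0.384). The number of lowered glycolysis genes was 5 with the block and 4 with total counts alone. With each library left out it lay between 3 and 11, with 3 without vehicle replicate 2, dantrolene replicate 1 or dantrolene replicate 2.

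Of 34 other targets tested of hypoxia-inducible factor 1 (HIF-1), the oxygen-sensing activator of glycolysis genes, 7 were lowered and 1 was raised (median −0.44). Over all genes tested 1.26% were lowered and 7.54% raised. BNIP3, a mitophagy receptor, was at 384, 479 and 350.4 CPM with vehicle and 137, 85.8 and 170.2 CPM with dantrolene (log2 fold change −1.63, SE 0.34, adjusted p = 0.0004). STC2, a secreted glycoprotein, fell from 123 ± 23 to 58.9 ± 14.5 CPM, PLOD1, a lysyl hydroxylase of collagen, from 415 ± 52.6 to 211 ± 33.2 CPM, and ANKRD37 from 8.94 ± 2.54 to 4.02 ± 0.889 CPM (adjusted p = 0.0237, 0.0464 and 0.0473). TFRC, the transferrin receptor, was the raised member (from 27.2 ± 12.3 to 66.4 ± 16.9 CPM, adjusted p = 0.0118, and 0.151 under DESeq2). VEGFA, the angiogenic ligand, was at 337, 181 and 158 CPM with vehicle and 136, 119 and 169 CPM with dantrolene with overlap (adjusted p = 0.298), ANGPTL4 at 20.7, 51.2 and 33.6 CPM with vehicle and 10.9, 18.7 and 23.6 CPM with dantrolene with overlap (adjusted p = 0.0501), and the prolyl hydroxylase subunit P4HA1 at 389 against 326 CPM as group means (adjusted p = 0.79). Lowered members numbered 3 with the block and 2 without dantrolene replicate 2, and STC2, ADM, PLOD1 and ANKRD37 lost the call with the block.

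Some transcripts of muscle proteins were lowered. ACTA1, skeletal muscle actin, was at 332, 274 and 463 CPM with vehicle and 111, 61.5 and 53.2 CPM with dantrolene (log2 fold change −2.25, SE 0.41, adjusted p = 4.93e-05), though actin genes are near-identical and reads could be split between them. HSPB7, a small heat shock protein of muscle, was at 29.5, 52.8 and 72.6 CPM with vehicle and 12.8, 19.5 and 9.28 CPM with dantrolene (log2 fold change −1.90, adjusted p = 0.000113), LMCD1, a cofactor of muscle transcription factors, at 22.8, 13.4 and 32.4 CPM with vehicle and 10.9, 4.34 and 3.87 CPM with dantrolene (log2 fold change −1.84, adjusted p = 0.000618, and 0.0629 under DESeq2), and MYOM1, which crosslinks myosin, at 17.9, 6.37 and 13.5 CPM with vehicle and 2.9, 4.91 and 2.78 CPM with dantrolene (log2 fold change −1.83, adjusted p = 0.000952). None of the 4 overlapped between groups. Of 32 contractile and actin genes tested, 30 were below 0 (median −0.56), against 58.6% of all genes tested, and 1 was lowered, against 1.26%. It was DES, the intermediate filament of muscle, at 289, 733 and 725 CPM with vehicle and 142, 349.8 and 219 CPM with dantrolene with overlap (log2 fold change −1.30, adjusted p = 0.0117, and 0.178 under DESeq2). ACTA2, smooth muscle actin and the usual marker of the myofibroblast, was at 15914, 17217 and 23132 CPM with vehicle and 15788, 10264 and 11472 CPM with dantrolene (log2 fold change −0.58, SE 0.34, adjusted p = 0.432). Calponin CNN1 (1393 against 761 CPM, adjusted p = 0.122) and TAGLN (6481 against 4229 CPM, adjusted p = 0.384) were not called. The summed level of 6 smooth muscle markers was 2538, 4792 and 5150 CPM with vehicle and 2545, 2732 and 2149 CPM with dantrolene, so the treated library of isolation 1 was not below its vehicle library.

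YAP and TEAD target genes, which respond to cell stretch and spreading, had 3 of 14 members lowered and none raised (median −0.58). Over all genes tested 1.26% were lowered and 7.54% raised. CCN2, connective tissue growth factor, was at 2788, 2211 and 4217 CPM with vehicle and 1869.7, 813 and 966 CPM with dantrolene (log2 fold change −1.34, SE 0.37, adjusted p = 0.00942, and 0.204 under DESeq2). ANKRD1, a nuclear partner of titin, was at 44.4, 92.9 and 85.4 CPM with vehicle and 20.8, 44.1 and 30.3 CPM with dantrolene (log2 fold change −1.22, adjusted p = 0.028), and F3, tissue factor, at 22.9, 60.4 and 50.8 CPM with vehicle and 10.1, 25.6 and 21.9 CPM with dantrolene (log2 fold change −1.22, adjusted p = 0.024), where vehicle replicate 1 fell among the dantrolene values. In the pathway itself 3 of 12 genes were raised, all of the inhibitory kinase cascade: MOB1A (from 32.8 ± 10.9 to 115 ± 47.2 CPM, adjusted p = 0.000142), LATS1 (from 15.5 ± 7.51 to 35.2 ± 6.67 CPM, 0.0192) and STK3 (from 16.9 ± 4.79 to 37.7 ± 10.6 CPM, 0.0217). With the block, 1 of the 3 targets was lowered, ANKRD1 and F3 were not called, and STK3 was not called. Of the raised members 1 was called without vehicle replicate 2, vehicle replicate 3, LPC replicate 2 or dantrolene replicate 2, with LATS1 and STK3 lost. The lowered targets numbered 0 without vehicle replicate 3 or LPC replicate 2.

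Several lowered genes lie in nutrient uptake and sensing or had no list of their own. TXNIP, a glucose-induced inhibitor of thioredoxin and of glucose uptake, was at 193, 108 and 266 CPM with vehicle and 68.9, 39.2 and 32.1 CPM with dantrolene (log2 fold change −2.02, SE 0.40, adjusted p = 0.000173, and 0.0716 under DESeq2). SLC2A5, the fructose transporter, was at 50.3, 102 and 93.6 CPM with vehicle and 20.2, 24.4 and 23.5 CPM with dantrolene (log2 fold change −1.85, SE 0.34, adjusted p = 5.68e-05), without overlap. CCN3, a matricellular growth regulator, was at 597, 1089 and 1211 CPM with vehicle and 399.8, 233 and 194 CPM with dantrolene (log2 fold change −1.81, adjusted p = 0.000344), and ALKAL1, a ligand of the receptors ALK and LTK, at 15, 36 and 52.5 CPM with vehicle and 8.21, 11.8 and 5.24 CPM with dantrolene (adjusted p = 0.00049, and 0.148 under DESeq2). EFHD1, a calcium-binding protein of mitochondria, fell from 6.75 ± 1.21 to 1.6 ± 0.105 CPM, and GTSE1, a mitotic microtubule protein, from 5.24 ± 2.48 to 1.27 ± 0.514 CPM (adjusted p = 0.00468 and 0.00354). EFHD1 had an adjusted p of 0.316 under DESeq2 and lost the call in 5 of 18 alternatives. LURAP1L fell from 6.49 ± 5.41 to 1.62 ± 1.45 CPM (adjusted p = 0.0243) with overlapping groups, and its call was lost in 9 of 18 alternatives. TIMP4, an inhibitor of matrix metalloproteinases, had 35, 18 and 33 counts with vehicle and 0 in the 3 dantrolene libraries, which is at least 10.5-fold lower.

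**Figure D3:**
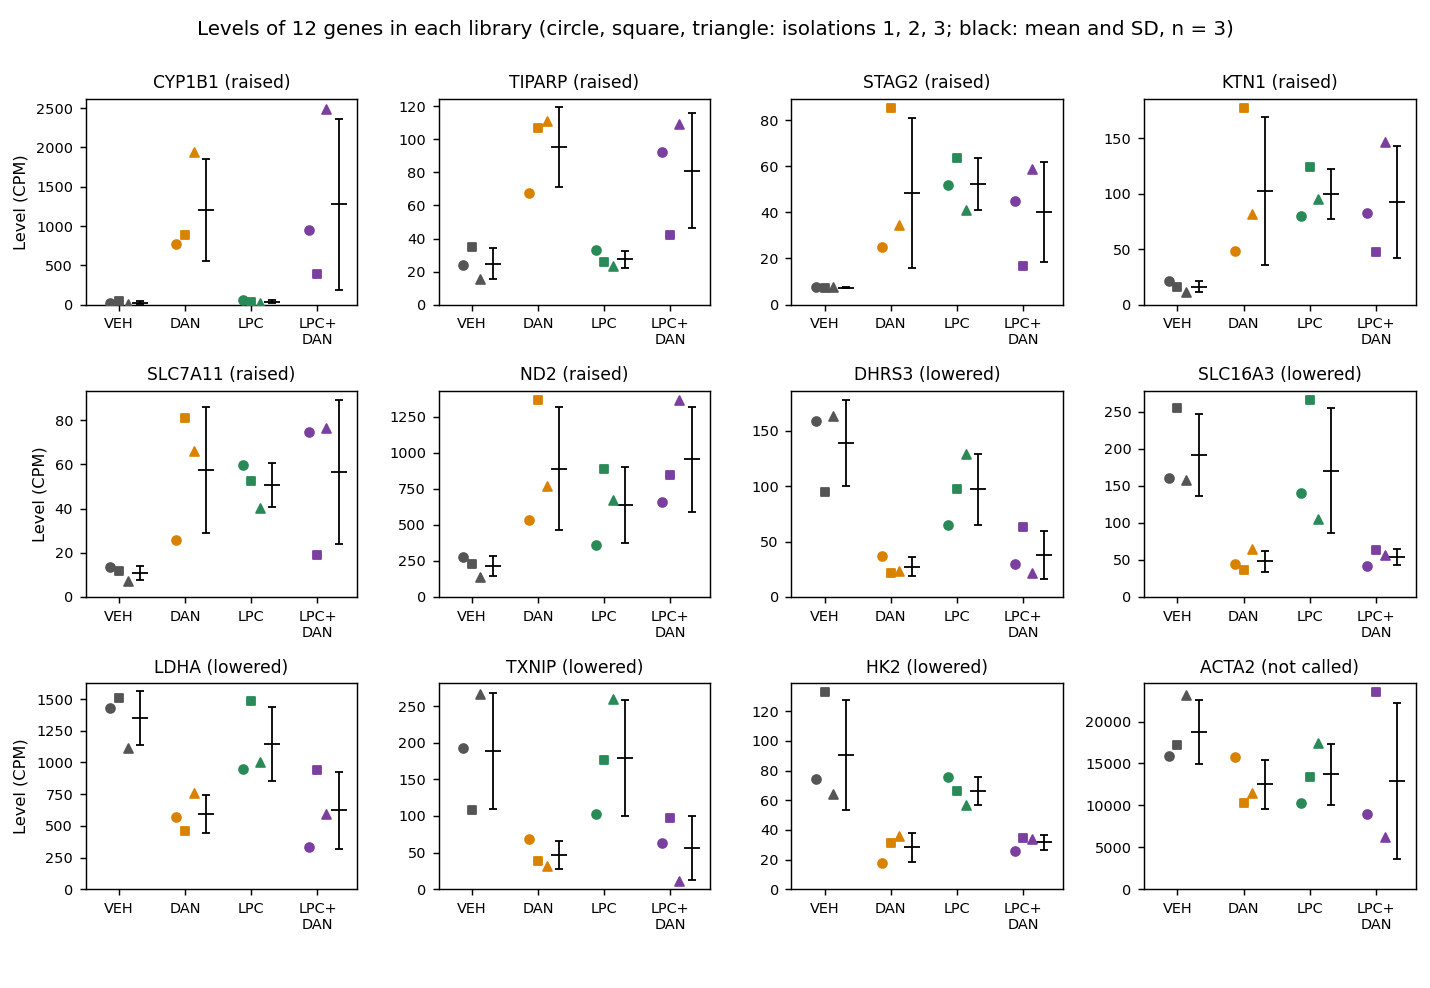
Levels in CPM of 12 genes in all 12 libraries, with the mean and SD of each group beside the points. DHRS3, SLC16A3, LDHA, TXNIP and HK2 have lower means in both groups that received dantrolene, CYP1B1 and TIPARP have higher means in both, STAG2, KTN1, SLC7A11 and ND2 have higher means with LPC alone than with vehicle, and ACTA2 was not called.

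No collagen chain was called among 18 tested, and 16 were below 0 (median −0.43), against 58.6% of all genes tested. COL1A1 was at 23664, 23417 and 21113 CPM with vehicle and 19851, 10758 and 12811 CPM with dantrolene (log2 fold change −0.65, adjusted p = 0.303) and COL3A1 at 12766 against 9185 CPM as group means (adjusted p = 0.556). Of 18 processing enzymes 3 were lowered (1.26% of all genes tested), PLOD1 and the collagen crosslinkers LOXL4 and LOXL1. LOXL4 was at 106, 180.3 and 185 CPM with vehicle and 52.7, 80.9 and 65.9 CPM with dantrolene (log2 fold change −1.24, adjusted p = 0.00713), and LOXL1 at 366, 271 and 372 CPM with vehicle and 223, 110.3 and 139 CPM with dantrolene (log2 fold change −1.10, adjusted p = 0.0229). Both were apart between groups, LOXL1 and PLOD1 lost the call with the block, and none of the 3 enzymes was called without vehicle replicate 3.

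Other matrix genes went both ways, with 3 of 37 raised and 4 lowered, against 7.54% and 1.26% of all genes tested. The raised share was near that of all genes. PRELP, a leucine-rich proteoglycan, was at 1282, 1368 and 1402 CPM with vehicle and 764, 371 and 488 CPM with dantrolene (log2 fold change −1.32, SE 0.35, adjusted p = 0.00584, and 0.125 without dantrolene replicate 2). TNC, tenascin C, fell from 761 ± 147 to 357 ± 109 CPM, THBS2, a thrombospondin, from 996 ± 330.2 to 444 ± 213 CPM with overlap, and ADAMTS1, a proteoglycan-cutting protease, from 11 ± 5.59 to 4.67 ± 0.692 CPM (adjusted p = 0.0248, 0.029 and 0.0334). LUM, lumican, a leucine-rich proteoglycan and fibroblast marker, was at 139.6, 70.9 and 115 CPM with vehicle and 336, 366 and 275 CPM with dantrolene (log2 fold change 1.59, SE 0.34, adjusted p = 0.000608). It was the only fibroblast marker called of 12. MMP16, a membrane-bound metalloproteinase, rose from 1.69 ± 1.09 to 5.47 ± 1.67 CPM and ADAMTS5, an aggrecanase, from 1.23 ± 0.734 to 3.92 ± 0.918 CPM (adjusted p = 0.00906 and 0.0317). Called with the block were 1 lowered and 2 raised members, and no lowered member was called without dantrolene replicate 2. TNC, THBS2, ADAMTS1 and ADAMTS5 lost the call with the block (adjusted p = 0.0549, 0.0963, 0.114 and 0.075). Under DESeq2 the adjusted p was 0.366 for THBS2, 0.114 for ADAMTS1 and 0.0657 for ADAMTS5. The call was lost in 9 of 19 alternatives for THBS2, 11 for ADAMTS1 and 10 for ADAMTS5.

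Secreted vasoactive peptides were lowered, 4 of 20 genes on that list (1.26% of all genes tested), and 1 receptor component was raised (7.54%). NPPB, the natriuretic peptide BNP, was at 0.763, 2.63 and 3.31 CPM with vehicle and 0, 0.114 and 0 CPM with dantrolene, which is 3 counts in 1 library. APLN, the apelin ligand, was at 23.2, 35.3 and 24.7 CPM with vehicle and 11.1, 7.08 and 12.4 CPM with dantrolene (log2 fold change −1.45, adjusted p = 0.0022), and EDN1, the vasoconstrictor endothelin 1, at 22.1, 25.8 and 25.9 CPM with vehicle and 10.3, 10.3 and 14 CPM with dantrolene (log2 fold change −1.09, adjusted p = 0.0328). ADM, adrenomedullin, fell from 59.1 ± 20.9 to 28.5 ± 6.85 CPM (adjusted p = 0.0355). CALCRL, the receptor that binds adrenomedullin, was at 0, 0 and 0.291 CPM with vehicle and 1.7, 0.99 and 0.819 CPM with dantrolene (adjusted p = 0.0123). NPR3, the clearance receptor of natriuretic peptides, was not called (adjusted p = 0.573). EDN1 and ADM lost the call with the block, and only 1 lowered member was called without dantrolene replicate 2. CDH5, an endothelial cadherin, fell from 31.8 ± 5.15 to 13.8 ± 0.739 CPM (adjusted p = 0.0111). The summed level of 9 endothelial markers, CDH5 among them, lay between 142 and 179 CPM with vehicle and between 124 and 128 CPM with dantrolene. The other 8 were not called. PECAM1 was at 44.16, 36.85 and 39.52 CPM with vehicle and 23.65, 41.4 and 35.58 CPM with dantrolene, with overlap. ERG and TIE1 overlapped too, and the receptor KDR was at or under 0.24 CPM. In bulk RNA fewer cells of a type and less RNA per cell cannot be told apart, and the part of endothelial transcripts in these 4 peptides was not tested.

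Of 30 cell cycle genes tested 5 were lowered and 2 raised (median −0.17), from low levels. Over all genes tested the shares were 1.26% and 7.54%. CDC20, the activator of the anaphase-promoting complex, was at 15.5, 19.4 and 14.3 CPM with vehicle and 6.3, 3.81 and 7.09 CPM with dantrolene (log2 fold change −1.52, adjusted p = 0.00208), and PLK1, a mitotic kinase, at 8.3, 12 and 10.8 CPM with vehicle and 1.86, 4.57 and 4.15 CPM with dantrolene (log2 fold change −1.54, adjusted p = 0.00466). KIF20A fell from 18.7 ± 5.65 to 6.93 ± 2.94 CPM, and the replicative helicase subunits MCM2 and MCM3 fell from 17.1 ± 4.43 to 6.51 ± 0.738 CPM and from 11 ± 1.19 to 4.3 ± 1.87 CPM (adjusted p = 0.00384, 0.00444 and 0.0154). The raised members were CENPE, a kinetochore motor (from 1.37 ± 0.712 to 5.4 ± 1.26 CPM, adjusted p = 0.00186), and MAD2L1, a checkpoint protein (from 3.64 ± 1.1 to 8.12 ± 2.98 CPM, 0.0464). TOP2A, the topoisomerase of dividing cells, was at 3.77, 2.22 and 1.45 CPM with vehicle and 0.0547, 9.26 and 2.46 CPM with dantrolene, so the treated libraries lay both below and above the vehicle libraries (adjusted p = 0.669). Between 2 and 8 members were lowered with each library left out, fewest without dantrolene replicate 1, and MCM3 and MAD2L1 lost the call with the block (adjusted p = 0.062 and 0.114).

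Osteogenic and chondrogenic genes had 3 of 20 lowered and 1 raised, against 1.26% and 7.54% of all genes tested. SPP1, osteopontin, was at 34.9, 31.7 and 22.3 CPM with vehicle and 7.28, 13 and 10.9 CPM with dantrolene (log2 fold change −1.51, SE 0.34, adjusted p = 0.00108), without overlap. MGP, an inhibitor of calcification, was at 983, 507 and 1584 CPM with vehicle and 649, 248 and 364 CPM with dantrolene with overlap (log2 fold change −1.28, adjusted p = 0.0211), and TNFRSF11B, the decoy receptor osteoprotegerin, fell from 11.1 ± 1.83 to 4.87 ± 1.15 CPM (adjusted p = 0.0384). MGP and TNFRSF11B lost the call with the block. OMD, osteomodulin, was raised (from 2.51 ± 2.11 to 8.45 ± 2.53 CPM, adjusted p = 0.00477, and 0.131 without vehicle replicate 2). RUNX2, the master factor of bone formation, was at 33.3, 47.2 and 23.5 CPM with vehicle and 33.9, 40.7 and 41.7 CPM with dantrolene, and SOX9, that of cartilage, at 45.4, 30.5 and 29.3 CPM with vehicle and 56.2, 19.7 and 32.9 CPM with dantrolene. Both overlapped between groups (adjusted p = 0.863 and 0.968).

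Ryanodine receptors, the channels that dantrolene blocks, were not called. RYR3, a ryanodine receptor, was at 32.2, 26.9 and 21.2 CPM with vehicle and 29.9, 24.3 and 22.3 CPM with dantrolene (log2 fold change −0.07, SE 0.34, adjusted p = 0.948). RYR2 was low in both groups, at 1.38, 0 and 0.465 CPM with vehicle and 0.438, 0.876 and 0.764 CPM with dantrolene, and RYR1 was not analysed here. Of 27 store calcium genes tested 1 was raised and 1 lowered, against 7.54% and 1.26% of all genes tested. The raised gene was the inositol trisphosphate receptor ITPR2 (from 4.35 ± 1.98 to 11.9 ± 3.1 CPM, adjusted p = 0.0121). The lowered one was FKBP1B, a protein that binds ryanodine receptors (from 9.36 ± 2.15 to 4.09 ± 0.938 CPM, adjusted p = 0.0334). Both lost the call with the block. ITPR1, ITPR3 and the calcium pump ATP2A2 had group means of 78.8 against 83.1 CPM, 37.8 against 36.2 CPM and 237 against 214 CPM, with adjusted p-values of 0.938, 0.952 and 0.867. Among 37 calcium-responsive genes 3 were raised, a share near the 7.54% of all genes tested. They were the transcription factors NFAT5 (from 7.22 ± 3.68 to 20.7 ± 7.81 CPM) and CREB1 (from 5.96 ± 0.989 to 15.6 ± 7.25 CPM) and the catalytic subunit of calcineurin PPP3CA (from 28.9 ± 8.54 to 71.3 ± 23 CPM), with adjusted p-values of 0.00469, 0.00678 and 0.00702. RCAN2, a regulator of calcineurin, missed the threshold (adjusted p = 0.0633). None was lowered, none of the 14 immediate early genes was called, and all 3 calls were lost without dantrolene replicate 2.

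Some lists held few or no calls, where 7.54% of all genes tested were raised and 1.26% lowered. None of the 25 genes of the unfolded protein and integrated stress response or of the 53 cytosolic ribosomal protein genes was called (medians −0.30 and −0.17). Of 36 sterol and fatty acid synthesis genes only TM7SF2, a sterol reductase, was lowered (6.2, 9.29 and 20 CPM with vehicle, 6.3, 5.49 and 2.24 CPM with dantrolene, adjusted p = 0.0313), with overlap and not with the block. The lipid synthesis factor SREBF1 was at 40.2, 65.2 and 72.4 CPM with vehicle and 32.2, 31.3 and 29.3 CPM with dantrolene (adjusted p = 0.0653). ACADM, an enzyme of fatty acid oxidation, was the only gene raised of 17 PPAR targets (from 10.5 ± 1.15 to 29.6 ± 5.58 CPM, adjusted p = 0.00159), and IFIH1, a sensor of viral RNA, the only one of 21 interferon genes (from 8.25 ± 0.915 to 20.9 ± 7.99 CPM, adjusted p = 0.0101). CLOCK (17.5 against 39.2 CPM) and NR1D2 (26.3 against 56.7 CPM) were raised of 17 circadian genes, against 7.54% of all genes tested. Neither was called with the block. Of 25 genes that the study's text names, for its RNA sequencing or as the fate markers ACTA2, RUNX2 and SOX9, 12 were raised and 2 lowered. Many of them were chosen on these samples and are no independent evidence of direction. The rest included BCL3 (adjusted p = 0.793), SORBS2 (0.0875), HDAC9 (0.345) and AGTR1 (0.855).

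**Figure D4:**
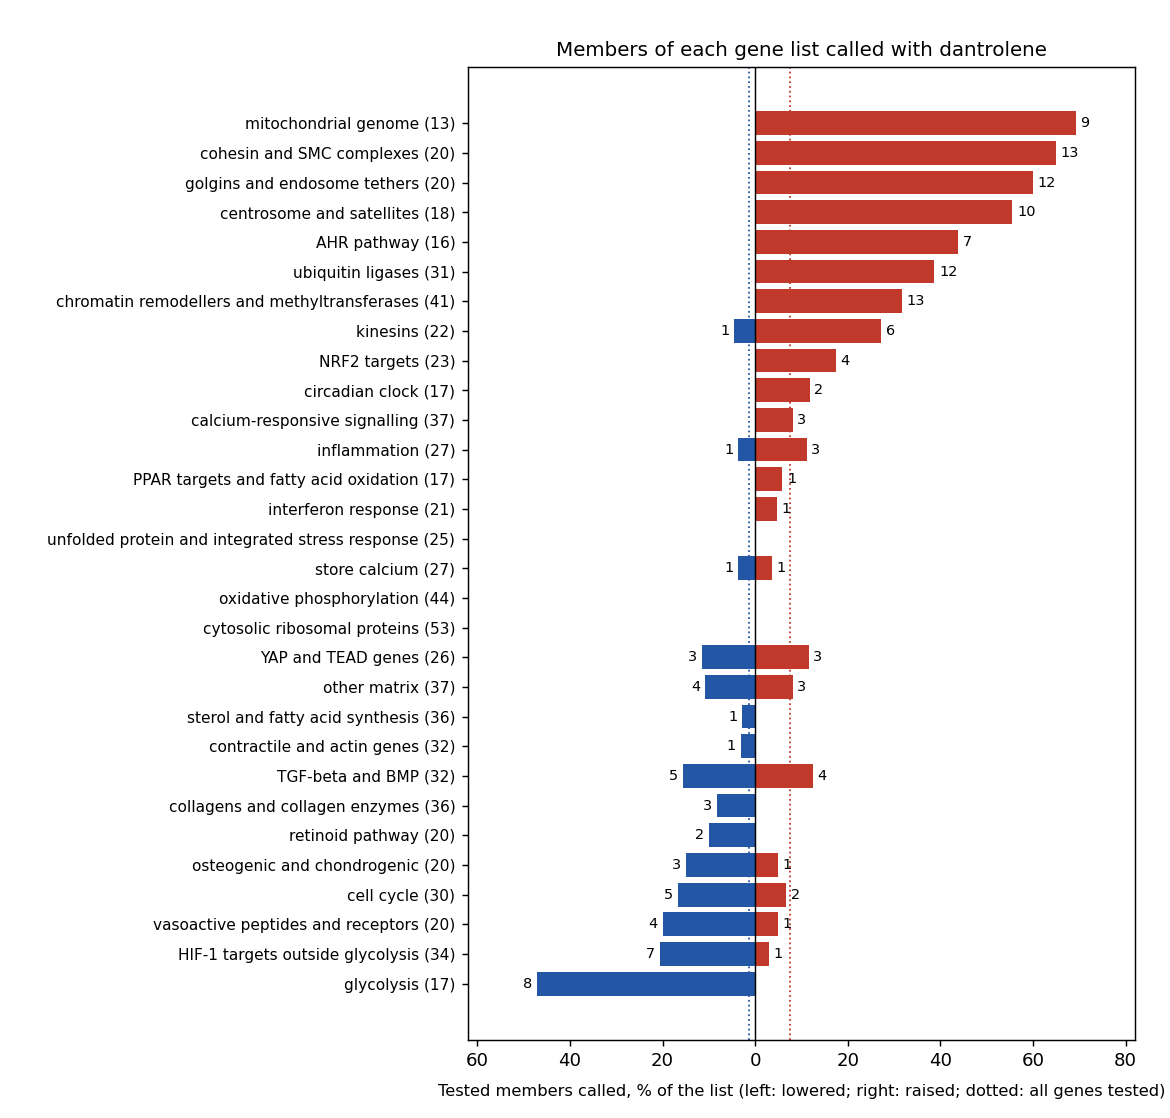
Share of the tested members of each gene list that was lowered (blue, to the left) or raised (red, to the right) with dantrolene, with the number of members beside each bar and the number tested in parentheses. Dotted lines mark the shares over all genes tested (7.54% raised, 1.26% lowered), and glycolysis has the longest bar to the left and the mitochondrial genome the longest to the right.

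The same drug was given to LPC-treated cells in 6 libraries that share none with the comparison above. There LPC + dantrolene minus LPC called 29 genes raised (0.219%) and 38 lowered (0.288%). Of the 166 genes lowered with dantrolene alone, 148 (89.2%) were also below 0 there, against 48.4% of all genes tested, with a median log2 fold change of −0.82, and 16 were lowered. That count was 2 without LPC replicate 2 or LPC + dantrolene replicate 3, 3 without LPC replicate 3, 6 without LPC replicate 1 and 53 without LPC + dantrolene replicate 2. Of the 997 raised genes, 260 (26.1%) were also above 0 there, against 51.6% of all genes tested, with a median of −0.19, and 11 were raised. That count was 3 without LPC replicate 2 and 20 without LPC + dantrolene replicate 2. The share of raised genes above 0 turned on 1 library: without LPC + dantrolene replicate 2 it was 74.7%, with a median of 0.165, while the share of lowered genes that were below 0 was then 92.8%. With any other LPC or LPC + dantrolene library left out, which was tried only once the data were known, the shares lay between 10.9% and 33.7% for raised and between 84.9% and 92.2% for lowered genes. Replicate 2 of LPC + dantrolene had the smallest TMM factor (0.863) and the fewest genes with counts (13371) of the 12 libraries.

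Some of the AHR targets raised with dantrolene alone were also raised in LPC-treated cells. LPC + dantrolene minus LPC gave log2 fold changes of 7.49 for CYP1A1, 5.11 for CYP1B1, 1.97 for AHRR and 1.57 for TIPARP (adjusted p between 4.45e-17 and 0.00826), and none of their interactions was called. The AHR targets NQO1 (1.21, adjusted p = 0.0722) and NFE2L2 (0.13, adjusted p = 0.979) were above 0 there and not called. AHR itself was below 0 there and not called (−0.33, adjusted p = 0.949). CXCL8 (3.56) and KIF12 (1.65) were raised there too. Lowered there as well were APLN (−2.04), TNFRSF11B (−1.85), ANKRD1 (−1.84), GDF6 (−1.78), ACTA1 (−1.71), SLC16A3 (−1.67), MYOM1 (−1.66), TXNIP (−1.66), LMCD1 (−1.55), CCN3 (−1.46), SLC2A5 (−1.39) and DHRS3 (−1.35). HK2 (−1.07), PFKFB3 (−1.01), BNIP3 (−1.06) and LDHA (−0.88) were below 0 and not called.

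Cohesin and golgin genes were not raised in these libraries. STAG2 was at 51.8, 63.7 and 41.1 CPM with LPC and at 44.9, 16.6 and 58.9 CPM with LPC + dantrolene (log2 fold change −0.38, adjusted p = 0.941), levels that all lay above those of the vehicle libraries. KTN1 was at 80, 124 and 94.8 CPM with LPC and 82.7, 47.8 and 147 CPM with LPC + dantrolene, and IL6ST at 245, 358 and 205 CPM with LPC and 202, 89.1 and 327 CPM with LPC + dantrolene. In each of the 3 genes LPC + dantrolene replicate 2 was the lowest of its group. The interaction, which is the effect of dantrolene with LPC less its effect without LPC, was called below 0 in 593 genes (4.49%) and above 0 in 21 (0.159%). It uses the 6 libraries of dantrolene against vehicle again, so genes chosen there as raised lean below 0 and those chosen as lowered lean above 0. Of the 997 raised genes 545 had an interaction below 0, and of the 166 lowered genes 11 had one above 0. Without LPC replicate 2 the interaction was called in 4 genes, and without dantrolene replicate 2 in 34.

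**Figure D5:**
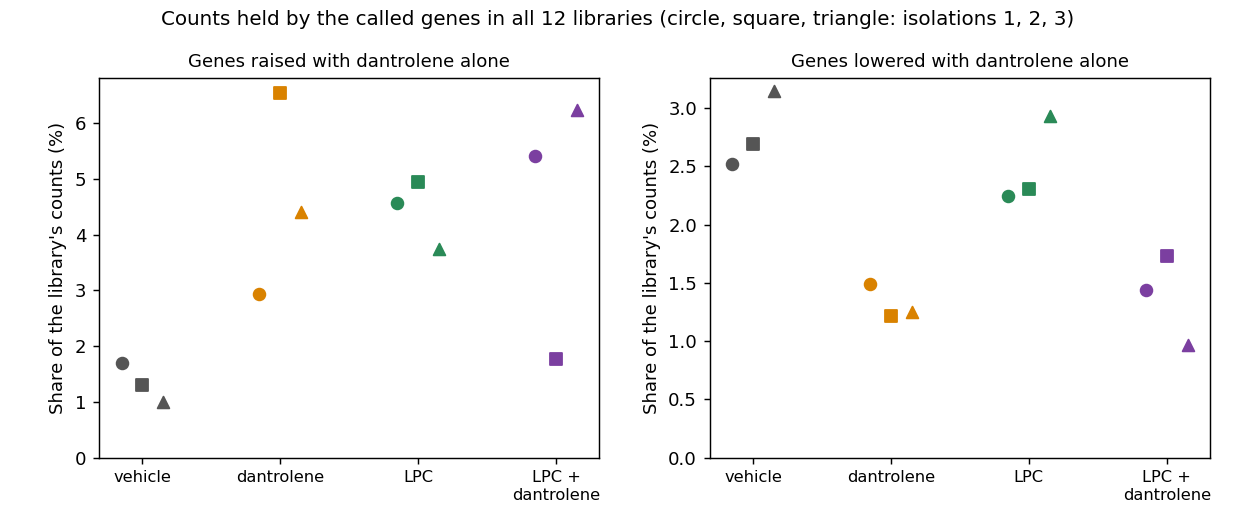
Share of each library's counts (%) held by the 997 genes raised (left) and the 166 genes lowered (right) with dantrolene alone, in all 12 libraries. The genes were chosen on the vehicle and dantrolene libraries, and the raised genes hold 4.57%, 4.94% and 3.74% with LPC alone and 5.41%, 1.77% and 6.24% with LPC + dantrolene, while the lowered genes hold 2.25% to 2.93% with LPC and 0.963% to 1.73% with LPC + dantrolene.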

How the data were processed

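The authors aligned the poly(A) mRNA reads, counted them on pig genes (Sscrofa11.1 per the labels) and adjusted them for a batch effect with ComBat. The paper does not name the batch variable, which is taken here to be the isolation. They deposited whole-number counts per gene, not scaled for library size. The paper names STAR as the aligner and the submitters' processing notes HISAT2 2.0.5, R 4.1.1 and DESeq2 1.32.0. The counts are therefore not the reads themselves, and batch means were moved toward each other. The fits take no account of what that step estimated, which can make adjusted p-values smaller than they should be. Whether counting used strand is not given in the sources used here, so a gene and its antisense partner cannot be told apart. The deposited tables of the authors' own 4 comparisons (fold changes, Wald scores and p-values) were not used.

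Counts of all 12 libraries were fitted in R 4.3.3 with edgeR 4.0.16 (filterByExpr by group, TMM factors, quasi-likelihood test, group as the only term), with a call at 0.05 after Benjamini-Hochberg adjustment. SEs are the log2 fold change divided by the square root of F. The script was tested on simulated counts. It recovered 9 of 50 genes with a log2 change of −1 and 5 of 54 with 1. At −2 it recovered 27 of 44 genes and at 2 it recovered 40 of 52. A gene that was not called may therefore still have changed, above all where the change is small. The labels number the replicates and do not name the isolation, so treating same-numbered libraries as pairs is an assumption. Deviations from the group means correlated at 0.0664, 0.177 and −0.147 in the 3 pairs. These values come from counts that ComBat had already adjusted and do not settle the pairing. Alternatives were DESeq2 1.42.0, RLE factors, total counts alone, other filters, the 2 groups alone, the block, a call at 0.1, and fits without each library in turn. Symbols came from the count table (10923 tested genes) or a gene name table (572), and 1721 had none. Gene spans and coordinates are RefSeq's for Sscrofa11.1.

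Named genes are, in each direction, the 15 smallest adjusted p-values and the 15 largest fold changes with a higher group mean of at least 5 CPM (with a symbol, all 3 pairs moving alike), genes the study's text names, ACTA2, RUNX2, SOX9 and list members. Not all are printed, and some items are not reported here. The gene lists and this rule were chosen with earlier results of these data known.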

Additional observations from a re-analysis of the deposited data

Results flagged for a closer look

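For 53 genes named in the text, the effect of dantrolene on LPC-treated cells differed from its effect without LPC (interaction term, adjusted p under 0.05, edgeR's quasi-likelihood test). The values are the log2 effect with LPC less the log2 effect without it, and no explanation was tested for them. Many of these genes were named because they were called in dantrolene minus vehicle, the effect that is subtracted. That choice favours values below 0 for raised genes, and 51 of the 53 values were below 0.

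Among cohesin and chromatin genes the interaction was −3.09 for STAG2, −3.16 for SMC2, −2.60 for SMC3, −2.13 for SMC6, −2.90 for NIPBL, −3.06 for ATRX, −2.20 for SMARCA5 and −2.15 for CHD1. Vesicle, centrosome and motor genes had −2.76 for KTN1, −2.96 for EEA1, −3.42 for CCDC186, −2.67 for GOLGB1, −2.79 for VPS13C, −2.51 for PCM1, −2.79 for CCDC88A, −2.63 for LRRCC1, −2.37 for ROCK1, −2.31 for KIF5B, −1.85 for KIF3A and −3.88 for KIF20B. In ubiquitin ligases it was −2.43 for CUL5 and −2.19 for BIRC6. Receptors and signalling genes had −1.70 for AHR, −2.52 for IL6ST, −2.39 for LIFR, −2.37 for JAK2, −2.14 for BMPR1A, −2.30 for TGFBR1, −1.88 for SMAD5, −2.27 for SKIL, −2.07 for MOB1A, −2.11 for NFAT5, −1.66 for NPR3, −2.08 for KITLG, −2.56 for CYTIP and −2.86 for ARHGAP5. For genes of metabolism, matrix and division it was −2.25 for SLC7A11, −1.83 for ACADM, −1.89 for ND5, −1.58 for LUM, −2.15 for MMP16, −2.19 for OMD, −2.50 for CENPE and −2.72 for TOP2A. Further values were −3.08 for NSRP1, −3.16 for SAMD9, −2.55 for NUDT12, −2.64 for DMXL2, −2.69 for ESF1 and −1.63 for NR1D2.

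GSTA1 (−7.94), TIMP4 (7.71) and HSPB3 (8.11) had 0 counts in all libraries of 1 group, so their fitted interactions are not estimates of size. Over all genes the number of interaction calls fell from 614 to 4 without LPC replicate 2 and to 34 without dantrolene replicate 2.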

How the results depend on the processing

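Direction held in every alternative for each of the named genes called. Genes lowered with dantrolene numbered 102 with DESeq2, 61 with total counts alone, 77 with the replicate block and 290 with the compared groups alone, against 166, and the raised genes stayed within 1.5 times of 997 outside the fits that left out a library. In LPC-treated libraries 7 genes were called with total counts alone, 19 with the block, 16 with the compared groups alone and 110 at an adjusted p under 0.1, against 67. The interaction was called in 234 genes with total counts alone and 280 with the block, against 614. With each library left out, raised genes ranged from 377 to 1515 and lowered genes from 52 to 284, in both cases lowest without dantrolene replicate 2 and highest without LPC + dantrolene replicate 2. Without vehicle replicate 2 they were 547 and 82, and without vehicle replicate 3 605 and 86. Without LPC replicate 2 the lowered genes were 105, and without dantrolene replicate 3 they were 85. Calls in LPC-treated libraries ranged from 9 (without LPC replicate 2) to 140 (without LPC + dantrolene replicate 2) and interaction calls from 4 (without LPC replicate 2) to 937 (without LPC + dantrolene replicate 3). The cause of these shifts was not tested, beyond that fewer libraries enter such a fit. Of 136 named genes called, 61 were called in every alternative, 45 raised and 16 lowered. Calls were lost most often without dantrolene replicate 2 (59 genes), 34 were lost with the block and 29 with DESeq2. Groups of 3 and counts already adjusted for a batch effect limit what these tests can resolve.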

Other observations

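Families described here were chosen after their values were seen, each with all of its members. Of 5 CCN matricellular genes tested 4 were lowered, against 1.26% of all genes tested. Beside CCN2 and CCN3, CCN4 fell from 24.6 ± 3.24 to 10.7 ± 4.03 CPM (log2 fold change −1.20, adjusted p = 0.022) and CCN5 from 50 ± 16.6 to 22.6 ± 11.9 CPM (log2 fold change −1.15, adjusted p = 0.0206). With the isolation as a block CCN4 and CCN5 lost the call (adjusted p = 0.0753 and 0.0662). CCN1 was at 1345, 1963 and 2117 CPM with vehicle and 1427, 924 and 1218 CPM with dantrolene (adjusted p = 0.401). Of 6 small heat shock genes tested 4 were lowered, against 1.26% of all genes tested. HSPB1 was at 117, 216 and 219 CPM with vehicle and 75.4, 87.1 and 87.5 CPM with dantrolene and CRYAB at 86.1, 141 and 159 CPM with vehicle and 61.8, 50.2 and 58 CPM with dantrolene (adjusted p = 0.0111 and 0.00965), both without overlap, HSPB7 is described above, and HSPB3 was at 0.98 CPM with vehicle and listed at 0 with dantrolene. The call was lost in 6 of 19 alternatives for HSPB1, 5 of 19 for CRYAB and 3 of 18 for HSPB3. HSPB3 had an adjusted p of 0.286 under DESeq2, and with total counts alone HSPB1 and CRYAB had 0.0709 and 0.062. HSPB6 (458 against 322 CPM, adjusted p = 0.531) and HSPB8 (68 against 38.8 CPM, 0.145) were not called.

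Of the receptors and kinases that signal through gp130, IL6ST, LIFR and JAK2 were raised of 8 tested, against 7.54% of all genes tested. LIFR was at 2.38, 2.28 and 1.92 CPM with vehicle and 7.61, 17.1 and 7.48 CPM with dantrolene (log2 fold change 2.29, adjusted p = 8.35e-05), and JAK2 at 5.68, 3.15 and 3.54 CPM with vehicle and 11.7, 31.7 and 17.3 CPM with dantrolene (log2 fold change 2.29, adjusted p = 1.73e-05). OSMR (56.2 against 47.6 CPM), IL11RA (48.9 against 41.9 CPM), JAK1 (320.1 against 307 CPM) and TYK2 (105 against 81.1 CPM) were not called (adjusted p between 0.668 and 0.954). Of 5 alpha-arrestins tested 1 was lowered and 1 raised, against 1.26% and 7.54% of all genes tested. TXNIP fell, and ARRDC3 was at 23.6, 21.6 and 11.3 CPM with vehicle and 54.1, 104 and 102 CPM with dantrolene (log2 fold change 2.20, SE 0.38, adjusted p = 2.21e-05). ARRDC1 (37.6 against 30.6 CPM), ARRDC2 (59 against 51.1 CPM) and ARRDC4 (26.9 against 18.4 CPM) were not called (adjusted p between 0.49 and 0.824).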
